A study of Sus scrofa with 14 samples.

Results

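Porcine induced pluripotent stem cells (iPSC) made with episomal plasmids and kept in the inhibitor-based medium FL6i were compared with porcine iPSC made with a lentivirus and kept in medium F, whose growth factor is FGF2. The members were 4 of the 14 RNA-seq samples of the series, 2 of Epi-piPSC-FL6i and 2 of Lv-piPSC-F, and every gene that reached 10 normalized counts in 2 or more of these 4, which held for 13988 of the 19588 genes with values. Each normalized count is a read count divided by a size factor that puts the libraries on 1 scale. The Epi-piPSC were porcine fetal fibroblasts electroporated with plasmids that carried human POU5F1, SOX2, KLF4, LIN28 and L-MYC and a short hairpin RNA, and plasmid DNA was still present in these lines. The first sample came from line C10 at passage 12 and the second from line C11 at passage 11, and both lines were picked from the same reprogramming experiment. The Lv-piPSC carried human POU5F1, SOX2 and KLF4 and are labelled ID6; the second sample was at passage 46, and the labels do not say whether both samples are from the same subline. FL6i holds FGF2, LIF and small-molecule inhibitors of MEK, GSK3, p38, JNK, the TGFB type I receptors and the BMP type I receptors. Both lines were grown on mouse embryonic fibroblast feeders. The passage of the first Lv-piPSC-F sample is not given. The reprogramming vector, the line and the medium all differed between the groups and cannot be told apart, nor can passage where it differed, so each difference below is one between these lines as they were grown and not one set by a single factor. Human transgene transcripts may align to their porcine counterparts, which was not tested.

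Pluripotent cells are described along an axis from a naive state, like the inner cell mass, to a primed state, like the later epiblast. FGF acting through the kinases MEK and ERK, together with TGFB, activin and nodal acting through SMAD2 and SMAD3, maintains primed cells, whereas LIF acting through STAT3 and WNT acting through beta-catenin sustain mouse naive cells. Inhibition of MEK lowers a short list of direct ERK target genes, and inhibition of GSK3 stabilizes beta-catenin, which binds TCF and LEF factors on DNA.

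The 2 Lv-piPSC-F libraries held 17411166 and 58878377 reads in genes and the 2 Epi-piPSC-FL6i libraries 17582502 and 17094484, and all 4 held between 16617 and 17581 genes with a read. Across genes, Pearson's r was 0.986 between the Epi-piPSC-FL6i samples, 0.894 between the Lv-piPSC-F samples, and 0.780 to 0.833 between the groups. An 8-fold gap on the log2(normalized count + 1) scale separated the Lv-piPSC-F pair in 687 genes (4.91%) and the Epi-piPSC-FL6i pair in 17 (0.122%). The first Lv-piPSC-F library stood apart in a way that touches single genes. Where 2 genes overlap on opposite strands and the higher one reached 1000 normalized counts, the lower one was at a median of 26.2% of its partner there and at 11.5% to 15.3% in the other 13 libraries. STAB1, for example, was counted at 2306 in that library and at 27.2 in the second Lv-piPSC-F library, while its overlapping neighbour NT5DC2 was at 2374 and 2329. The cause was not tested, and genes named below that share at least 50 exon bases with a gene on the other strand are marked as overlapping. NANOG, CCN2, HOXD4, INHBA, TUBB3, ZNF227 and LIFR had no single RefSeq position and were not checked for this. The fibroblast markers also split the Lv-piPSC-F samples. The sum of their 10 measured members was 651 and 21417 in Lv-piPSC-F against 12221 and 15878 in Epi-piPSC-FL6i. COL1A1 alone was at 46.2 and 11309 in Lv-piPSC-F and at 5575 and 7468 in Epi-piPSC-FL6i. Fewer cells of a type and less RNA per cell cannot be told apart in such bulk samples. How much of the fibroblast marker values came from the mouse feeder cells was not tested.

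Of the 13988 genes, 1885 (13.5%) rose in Epi-piPSC-FL6i relative to Lv-piPSC-F and 1922 (13.7%) fell, at an adjusted p of at most 0.05 by limma with Benjamini-Hochberg adjustment. Differentially expressed genes (DEGs), which also had a log2 difference of 3 or more, numbered 806 (5.76%), of which 454 (3.25%) rose and 352 (2.52%) fell. The median log2 difference over all tested genes was -0.03. The groups did not overlap in 71.7% of tested genes, with Epi-piPSC-FL6i above in 34.0% and Lv-piPSC-F above in 37.7%, so a lack of overlap at 2 samples against 2 says little by itself. With either Epi-piPSC-FL6i sample left out, limma called 0 genes, with 2585 and 2609 at an unadjusted p below 0.05, as the spread was then estimated from the Lv-piPSC-F pair alone. With the first or the second Lv-piPSC-F sample left out it called 8241 and 8195. The p-values measure the spread between these few samples, whose independence the labels do not state. Fold changes below are on the log2(normalized count + 1) scale, and each difference is Epi-piPSC-FL6i minus Lv-piPSC-F with its standard error (SE).

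**Figure D1:**
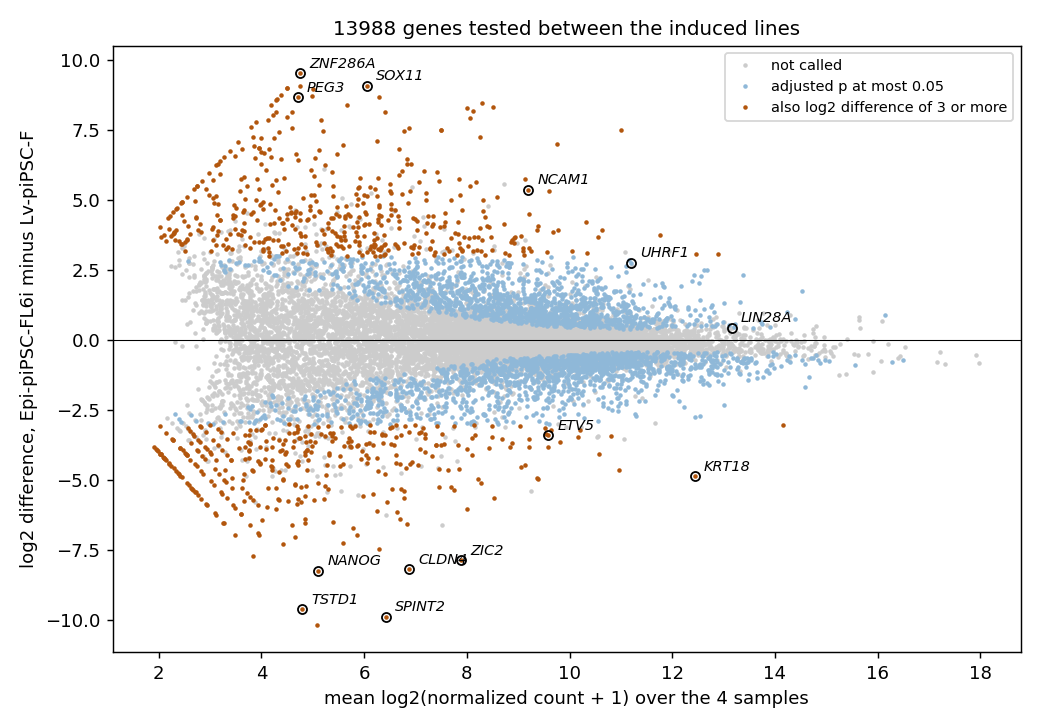
The log2 difference of each of the 13988 tested genes (y axis, Epi-piPSC-FL6i minus Lv-piPSC-F) is plotted against its mean log2(normalized count + 1) over the 4 samples (x axis), in grey where not called, in blue at an adjusted p of at most 0.05 and in orange for the 806 DEGs. SPINT2 and TSTD1 lie lowest among the labelled genes, near -10, ZNF286A and SOX11 lie highest, above 9, and LIN28A lies near 0.

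The pluripotency network separated the lines gene by gene and did not move as a block. NANOG and PRDM14 were almost silent in Epi-piPSC-FL6i, LIN28A and LIN28B were abundant in both groups, and ESRRB and KLF4 were higher in Epi-piPSC-FL6i. Of 20 listed core and shared pluripotency genes, 10 had an identifier and 9 passed the filter, of which 1 rose and 4 fell. That was a called share of 55.6%, beside the 27.2% of all tested genes. NANOG, a homeodomain factor of the core network, was counted at 418 and 847 in Lv-piPSC-F and at 0.965 and 0.999 in Epi-piPSC-FL6i, where 1 normalized count is about 1 read. The groups were far apart, and the ratio of reads per depth was 644 (counting interval 178 to 5318; log2 difference -8.23, SE 0.54, adjusted p = 0.00695, limma). RefSeq places NANOG at more than 1 locus of the pig genome, so reads shared between near-identical copies leave its level uncertain. PRDM14, which represses FGF receptor signalling in mouse naive cells, was counted at 163 and 257 in Lv-piPSC-F and at 0 in both Epi-piPSC-FL6i samples. That is at least 70.1-fold lower in Epi-piPSC-FL6i against a floor of 3 reads per library (adjusted p = 0.00726, limma). Among the other 10 samples of the series PRDM14 reached no more than 1.84 normalized counts, so of all 14 samples the 2 Lv-piPSC-F samples alone held it in quantity.

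LIN28A, an RNA-binding protein that blocks let-7 processing, was counted at 8813 and 7007 in Lv-piPSC-F and at 10048 and 11450 in Epi-piPSC-FL6i. The Epi-piPSC-FL6i samples were the higher, and the log2 difference of 0.45 (SE 0.16) did not pass (adjusted p = 0.108, limma). Human LIN28 was on the delivered plasmids and is not among the lentiviral genes named above. How much of the LIN28A values came from a transgene was not tested. LIN28B, a paralog of LIN28A, rose by 0.43 (SE 0.10, adjusted p = 0.0443, limma). A pair of surface proteins shared by pluripotent and epithelial cells fell. The adhesion molecule EPCAM was at 3422 and 4651 in Lv-piPSC-F and at 879.5 and 1196 in Epi-piPSC-FL6i, a fall of 1.96 on the log2 scale (SE 0.23, adjusted p = 0.0129), and CDH1, or E-cadherin, fell by 1.34 (SE 0.28, adjusted p = 0.0345). Over the 7 measured pluripotent markers of 15 listed the sum was 40124 and 30974 in Lv-piPSC-F and 20260 and 24361 in Epi-piPSC-FL6i. It was 178 to 625 in the porcine blastocyst-derived embryonic stem-cell-like cells kept in FL6i (pESCLC-FL6i). In both iPSC groups CDH1 and LIN28A made up most of the sum, CDH1 being at 25547 and 16469 in Lv-piPSC-F and at 6937 and 9419 in Epi-piPSC-FL6i. POU5F1 and SOX2 were not among the 7.

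Genes tied to the naive state went both ways. Of 21 listed, 13 passed the filter, of which 3 rose and 5 fell (61.5% called), with a median log2 difference of -0.13. The balance depended on low values. At a filter of 50 normalized counts 3 of 7 genes rose and 1 fell, with a median of 0.49. ESRRB, an orphan nuclear receptor of the mouse naive network, was counted at 334 and 138 in Lv-piPSC-F and at 2819 and 3413 in Epi-piPSC-FL6i. Both Epi-piPSC-FL6i samples were above both Lv-piPSC-F samples, by 14.4-fold (log2 difference 3.85, SE 0.46, adjusted p = 0.0128). KLF4 was at 122 and 368 in Lv-piPSC-F and at 1182 and 1641 in Epi-piPSC-FL6i, and rose by 2.71 (SE 0.58, adjusted p = 0.0358). KLF4 was also on the delivered plasmids and on the lentivirus, and how much of each value came from a transgene was not tested. STAT3, the transcription factor downstream of LIF, rose by 0.49. KLF5, TBX3, DPPA5, NR0B1 and FGF4 fell, the smallest log2 difference being -2.64 (KLF5) and the largest -5.64 (DPPA5). DPPA5, an RNA-binding protein of early embryonic cells, was at 128 and 37.6 in Lv-piPSC-F and at 0 and 0.999 in Epi-piPSC-FL6i. FGF4, the FGF of the early epiblast, was at 24.2 and 22.6 against 0 and 0.999. Each of these last genes thus had a single read in Epi-piPSC-FL6i, and the ratios carry wide counting intervals, 30.2 to 6647 for DPPA5 and 8.56 to 1884 for FGF4.

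Primed-associated genes also divided, 6 of 17 rising and 5 falling (22 listed, median -0.14, 64.7% called). SOX11, a neural and epiblast SOX factor, was counted at 0 and 7.31 in Lv-piPSC-F and at 1386 and 1725 in Epi-piPSC-FL6i. It was near absent from the one pair and plentiful in the other, a log2 difference of 9.07 (SE 1.09, adjusted p = 0.0132). ZIC2, a zinc-finger factor of primed enhancers, ran the other way, with 2915 and 4459 in Lv-piPSC-F and 10.6 and 20.0 in Epi-piPSC-FL6i, a 231-fold fall (SE of the log2 difference 0.41, adjusted p = 0.00656). Its genomic neighbour ZIC5 was at 706 and 1503 against 2.90 and 7.99 and fell by 7.45 (SE 0.64, adjusted p = 0.00844). POU3F1, a POU factor of epiblast and neural progenitors, rose by 4.32 (SE 0.71, adjusted p = 0.0218). OTX2, a homeobox gene of the epiblast, was at 2338 and 2220 in Lv-piPSC-F and at 1867 and 2283 in Epi-piPSC-FL6i. These ranges overlapped (log2 difference -0.14, SE 0.14, adjusted p = 0.484). DNMT3B, a de novo methyltransferase, was at 35581 and 47300 against 15249 and 18038 and fell by 1.31 (SE 0.20, adjusted p = 0.0193).

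**Figure D2:**
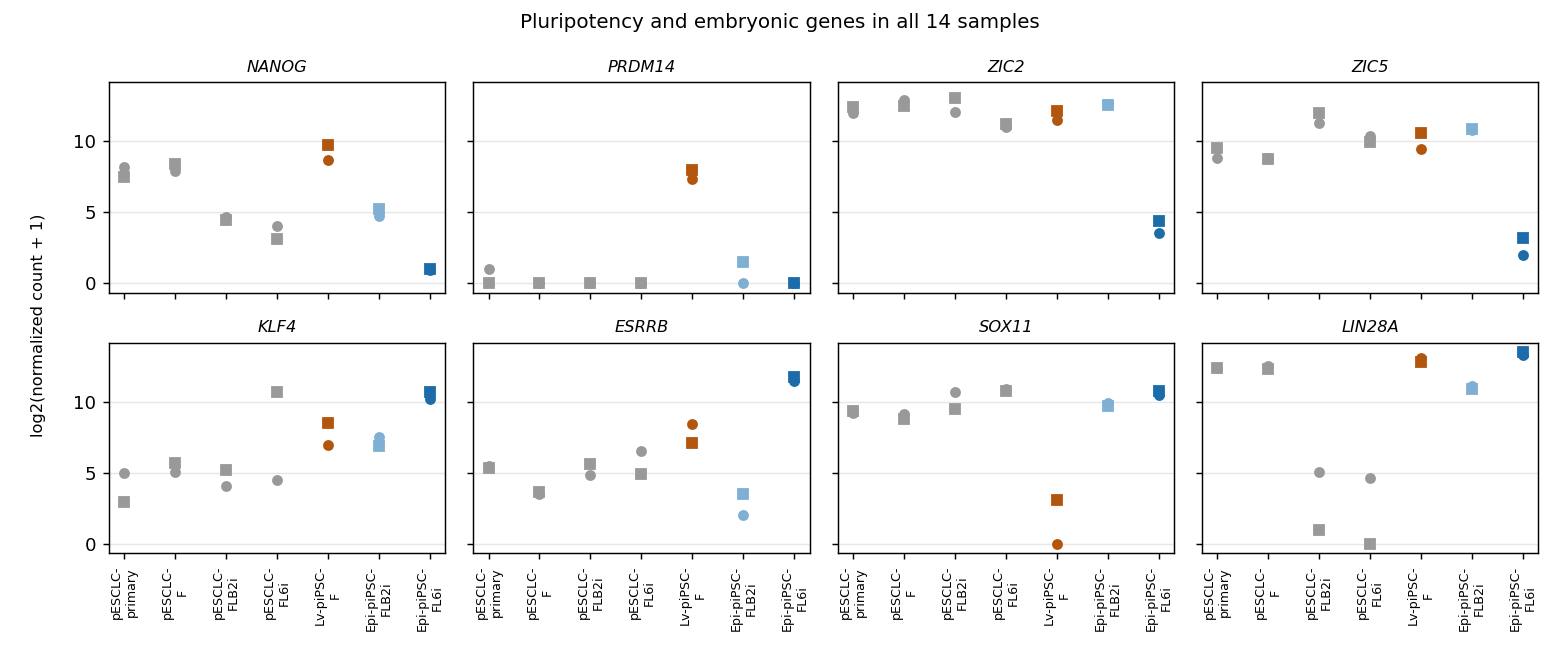
Each panel shows 1 gene as log2(normalized count + 1) (y axis) in the 7 groups of the series (x axis), with a circle for the first and a square for the second sample of each group. PRDM14 is above 7 in Lv-piPSC-F alone, SOX11 is near 0 in the first Lv-piPSC-F sample and above 10 in both Epi-piPSC-FL6i samples, and LIN28A is high in both lines and low in the pESCLC-FL6i samples.

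MYC, the proto-oncogene related to the delivered L-MYC, was counted at 205 and 2195 in Lv-piPSC-F and at 287 and 382 in Epi-piPSC-FL6i. The values of the lentiviral pair enclosed those of the episomal pair, and the difference of -1.02 (SE 1.18) did not pass (adjusted p = 0.546, limma). Without the second Lv-piPSC-F sample it was 0.69, with the opposite sign. CDKN1A, a cell-cycle inhibitor, did not pass (log2 difference 0.57, adjusted p = 0.604). GADD45A, a DNA-damage-inducible gene, was at 617 and 580 against 139 and 119.9 and fell (adjusted p = 0.00896). POU5F1, SOX2 and MYCL were not analysed here.

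Of the 13 called genes among those induced through MEK and ERK, 10 fell in Epi-piPSC-FL6i. Of 24 listed, 22 passed the filter, of which 10 fell and 3 rose (59.1% called). The median log2 difference was -2.18, beside -0.03 over all genes. EGR1, an immediate early transcription factor, was counted at 128 and 307 in Lv-piPSC-F and at 1.93 and 4.99 in Epi-piPSC-FL6i. The pairs were well separated, by 47.5-fold (SE of the log2 difference 0.70, adjusted p = 0.014, limma). ETV5, an ETS factor induced by FGF, was at 2259 and 2750 against 179.6 and 311 and fell by 3.39 (SE 0.31, adjusted p = 0.00896). FOSL1, an AP-1 subunit, was at 755 and 579 against 53.1 and 45.0, a 13.3-fold fall (adjusted p = 0.00726). CCND1, or cyclin D1, was at 1296 and 3583 against 231 and 264, an 8.71-fold fall (adjusted p = 0.0218). In each of these genes the lowest Lv-piPSC-F value was well above the highest Epi-piPSC-FL6i value.

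Feedback inhibitors of the pathway were among those that fell. SPRY1, a receptor-level inhibitor, was counted at 249 and 238 in Lv-piPSC-F and at 26.1 and 7.99 in Epi-piPSC-FL6i (log2 difference -3.97, SE 0.64, adjusted p = 0.021). The ERK phosphatases DUSP4, DUSP5 and DUSP6 fell by 1.26, 3.75 and 2.55. DUSP6 was at 873 and 1366 against 138 and 249.7 (adjusted p = 0.0194). The 3 genes that rose were SPRED3 and IL17RD, which also restrain the pathway, and the ephrin receptor EPHA4, with log2 differences of 2.12 to 2.90. SPRED2 was at 1014 and 1034 against 1368 and 1353 and did not pass (log2 difference 0.41, adjusted p = 0.0582), and SPRED1, overlapping, did not pass either (-0.33, adjusted p = 0.518). Without the first Lv-piPSC-F sample 15 of 21 members fell and 4 rose, and without the second 13 fell and 6 rose. In the cascade itself 3 of 23 listed genes rose and 3 fell (median -0.07), a share of 26.1% near the 27.2% of all tested genes. MAP2K6, a kinase upstream of p38, rose by 2.02 (SE 0.31, adjusted p = 0.0192), and MAPK12, or p38 gamma, fell by 2.98 (SE 0.34, adjusted p = 0.0123).

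**Figure D3:**
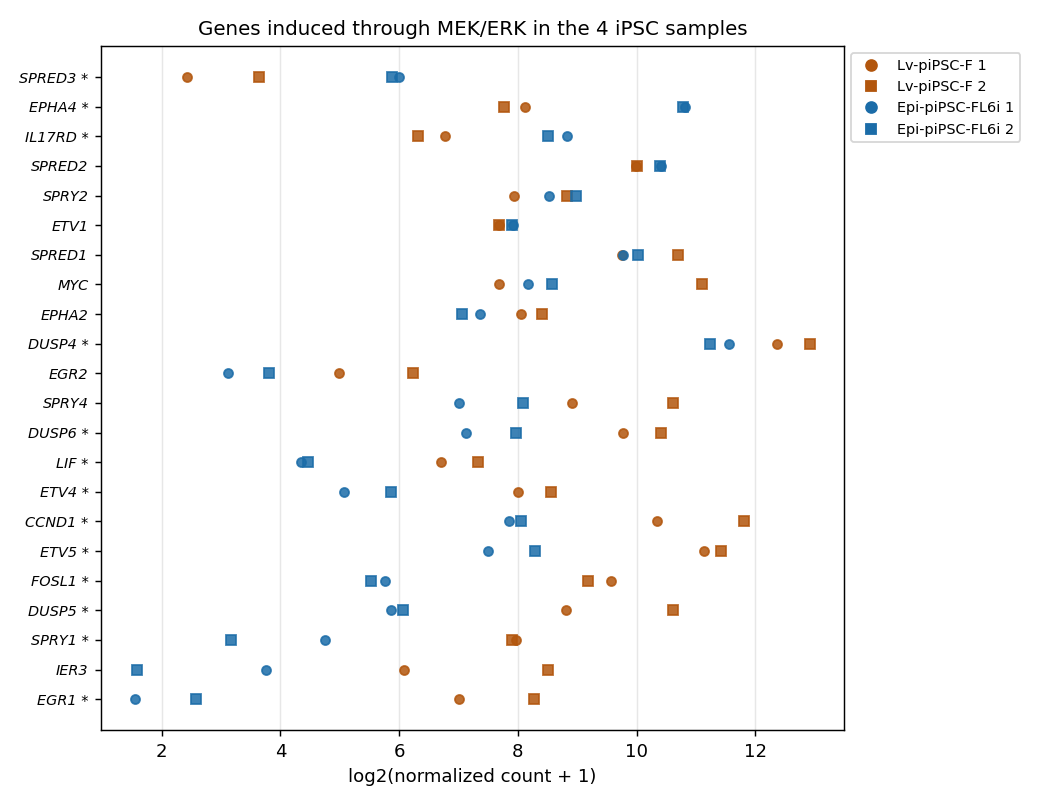
The 22 tested genes of the MEK/ERK list (y axis, an asterisk marks an adjusted p of at most 0.05) are shown by log2(normalized count + 1) (x axis) in the 2 Lv-piPSC-F samples (orange) and the 2 Epi-piPSC-FL6i samples (blue), with a circle for the first and a square for the second sample. The blue symbols lie left of the orange ones for the 10 genes that fell, from EGR1 to DUSP4, and right of them for SPRED3, EPHA4 and IL17RD.

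Of 14 measured FGF ligands, receptors and adaptors (24 listed) 5 fell and 2 rose, with a median of -0.14 and a called share of 50%. The ligands FGF2, FGF4, FGF10 and FGF19 fell, and FGF9, FGF12 and FGF18 did not pass. FGF2 was counted at 792 and 700.5 in Lv-piPSC-F and at 93.6 and 99.9 in Epi-piPSC-FL6i. Both Lv-piPSC-F samples were above both others by 7.63-fold (log2 difference -2.93, SE 0.20, adjusted p = 0.00695, limma), and FGF2 overlaps NUDT6 on the other strand. FGF19 and FGF10 fell by 2.95 and 2.26. FGFRL1, a receptor without a kinase domain that overlaps another gene, rose by 1.86 (SE 0.33, adjusted p = 0.0241). FGFR4 fell by 1.34 and FGFR1 rose by 0.40. Among stress kinase and AP-1 genes 3 of 19 rose and 3 fell, a share of 31.6% near the 27.2% of all tested genes. JUN was at 78.1 and 207 against 591 and 511 and rose 4.3-fold (adjusted p = 0.048), and GADD45G rose by 2.79 (SE 0.67, adjusted p = 0.0458).

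The TGFB, activin and nodal ligands and receptors showed 3 members rising and 3 falling of 19 measured (28 listed, median -0.59). That was a share of 31.6%, near the 27.2% of all tested genes. TGFB1 was counted at 367 and 933 in Lv-piPSC-F and at 26.1 and 6.99 in Epi-piPSC-FL6i, and TGFB2 at 252 and 375 against 1198 and 1666. The ligands thus moved in opposite directions, TGFB1 falling by 5.32 (SE 0.81, adjusted p = 0.019) and TGFB2 rising by 2.20 (SE 0.28, adjusted p = 0.0147). TGFBR3, a co-receptor, fell by 2.79 (adjusted p = 0.0179), FST, the activin-binding follistatin, fell by 1.62 (adjusted p = 0.00764), and the receptor ACVR2B rose by 1.31 (adjusted p = 0.0345). The activin subunit INHBA was at 6.60 and 2835 in Lv-piPSC-F and at 23.2 and 66.9 in Epi-piPSC-FL6i, so the Lv-piPSC-F samples enclosed the others and no difference was called (adjusted p = 0.662). Among 17 measured SMAD2/3 genes 1 rose and 2 fell, a share of 17.6%. CCN2, a matricellular growth factor, was at 1876 and 3166 against 263 and 262 and fell by 3.21 (SE 0.28, adjusted p = 0.00883).

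In the BMP branch calls fell on secreted antagonists and receptors. None of the 5 measured BMP ligands passed. Of 17 measured members (29 listed) 4 rose and 2 fell, a share of 35.3% beside the 27.2% of all tested genes. The antagonist GREM1 was counted at 30.8 and 104 in Lv-piPSC-F and at 959 and 691 in Epi-piPSC-FL6i, a rise of 3.82 (SE 0.64, adjusted p = 0.0224). Another antagonist, NBL1, was at 145 and 164 against 1064 and 1214 and rose by 2.87 (SE 0.18, adjusted p = 0.00689). BMPER, which binds BMPs outside the cell, was at 514 and 575 against 21.2 and 32.0, a 20.1-fold fall (adjusted p = 0.00772), and overlaps another gene. The co-receptors split, RGMA rising by 1.56 and RGMB, overlapping, falling by 1.46. Of 18 SMAD1/5/9 genes 1 rose and 3 fell, a share of 22.2%. DLX5, a homeobox target of BMP, was at 77.0 and 22.3 in Lv-piPSC-F and at 0 in both Epi-piPSC-FL6i samples, at least 16.6-fold lower (adjusted p = 0.0202). MSX2 fell by 2.60 (adjusted p = 0.0237), and SMAD6, an inhibitory SMAD, was at 73.7 and 110.0 against 399.7 and 479 and rose by 2.27 (adjusted p = 0.0156). ID1, ID2, ID3 and ID4, usual direct targets, did not pass.

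Of 24 measured WNT ligands and receptors 8 rose and 5 fell (34 listed, median 0.65, 54.2% called). With no filter on low values 6 of 32 rose and 4 fell (median -0.06). The receptor FZD10 was counted at 149.6 and 125 in Lv-piPSC-F and at 1528 and 1575 in Epi-piPSC-FL6i, an 11.3-fold rise (SE of the log2 difference 0.17, adjusted p = 0.00656, limma). The ligand WNT7A was at 5.50 and 3.48 against 85.9 and 27.0 and rose by 3.19 (adjusted p = 0.0463). WNT10B, overlapping WNT1, was at 128 and 250.3 against 10.6 and 14 and fell by 3.77 (adjusted p = 0.0159), and WNT2 was at 12.1 and 24.4 against 0 in both, at least 6.09-fold lower (adjusted p = 0.0248). Of 20 measured beta-catenin and TCF genes 6 rose and 1 fell, the latter being CCND1. That was a share of 35%, beside the 27.2% of all tested genes. NKD1, a feedback inhibitor and usual target of beta-catenin, was at 1.10 and 4.53 against 97.5 and 43.0 (log2 difference 4.27, SE 0.80, adjusted p = 0.0274). SP5, a zinc-finger target of the pathway, was at 13.2 and 11.5 against 191 and 106 (3.43, SE 0.48, adjusted p = 0.017). LGR5, an R-spondin receptor, rose by 3.19 (adjusted p = 0.0496) and APC, part of the destruction complex, by 1.19 (adjusted p = 0.0302). AXIN2, another usual target, had a log2 difference of 1.57 and did not pass.

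The letters CTTTGAT, a core that TCF and LEF factors bind, were searched on both strands of the 250 bases before each RefSeq gene start and were found in 2.06% of 19497 windows. Among the 20 measured beta-catenin genes 3 windows held them, those of NKD1, LEF1 and AXIN2, and only NKD1 of these rose. Its window on Sscrofa11.1 is printed because it is the one riser with a match, chr6:34319585-34319834 on the minus strand, 5′ to 3′, with the match in capitals.
NKD1: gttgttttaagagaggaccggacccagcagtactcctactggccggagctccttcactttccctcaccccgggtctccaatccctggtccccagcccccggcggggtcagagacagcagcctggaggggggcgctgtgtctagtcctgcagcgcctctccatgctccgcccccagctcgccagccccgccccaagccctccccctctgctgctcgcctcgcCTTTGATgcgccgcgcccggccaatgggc
A match is a description of the letters and not a binding site. The AP-1 letters TGACTCA (2.88% of windows) were found before ETV5 alone of the 10 MEK/ERK genes that fell, and the ETS letters CCGGAAGT (2.87% of windows) before none of them.

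LIF pathway genes showed 6 rising and 4 falling of 24 measured (29 listed, median -0.23, 41.7% called). The receptor CNTFR was counted at 177 and 98.2 in Lv-piPSC-F and at 944 and 575 in Epi-piPSC-FL6i, and rose by 2.47 (SE 0.42, adjusted p = 0.0223). SOCS3, the feedback inhibitor that STAT3 induces, was at 103 and 44.9 against 303 and 294 and rose by 2.11 (SE 0.47, adjusted p = 0.0397). The oncostatin receptor OSMR, overlapping, rose by 2.59. LIF itself was at 103 and 159 against 19.3 and 21.0 and fell by 2.61 (SE 0.42, adjusted p = 0.0209), and the kinase PIM3, another STAT3 target, fell by 2.60 (adjusted p = 0.0307). LIFR and IL6ST, the 2 chains of the LIF receptor, did not pass. Of 18 measured Notch genes 8 rose and 1 fell (26 listed, median 1.00, 50% called). The median was 0.49 and 0.54 without the first and the second Epi-piPSC-FL6i sample, when 15 genes passed the filter. The ligand DLL1 was at 9.90 and 0.348 in Lv-piPSC-F and at 237 and 273 in Epi-piPSC-FL6i, a rise of 6.06 (SE 1.11, adjusted p = 0.0264). The fringe glycosyltransferases MFNG and LFNG rose by 3.27 and 1.31, the coactivator MAML2 by 2.92 and HES6 by 2.75. HES1, the best known target, had a log2 difference of 0.29 and did not pass.

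Several neural genes rose in Epi-piPSC-FL6i. The called share of the ectoderm and neural list was 69.2%. Of 13 measured ectoderm and neural genes (26 listed) 6 rose and 3 fell, with a median of 1.76 that was 0.58 with a filter of 50 normalized counts, 0.74 with no filter, and 0.72 and 0.14 without the first and second Epi-piPSC-FL6i sample. NCAM1, the neural cell adhesion molecule, was counted at 58.3 and 141 in Lv-piPSC-F and at 4000 and 3553 in Epi-piPSC-FL6i, a 41.1-fold rise (SE of the log2 difference 0.45, adjusted p = 0.00826, limma). PAX6, a neural homeobox gene, was at 0 in both Lv-piPSC-F samples and at 206 and 40.0 in Epi-piPSC-FL6i, at least 37.2-fold higher (adjusted p = 0.0186). MAP2, a dendritic microtubule protein, was at 55.0 and 119 against 1527 and 1258 and rose by 4.08 (SE 0.42, adjusted p = 0.0103). The neuronal tubulin TUBB3 was at 1334 and 2855 against 15497 and 17179 (log2 difference 3.06, SE 0.39, adjusted p = 0.0141), and it made up most of the sum of the 4 measured neural markers, 1866 and 3478 against 18114 and 18785. FOXD3, a forkhead gene of epiblast and neural crest, went the other way, with 135 and 131 against 0.965 and 0, a single read (ratio 271, counting interval 48.6 to 10696, adjusted p = 0.00908). TUBB3 lies outside the naming rule and was chosen after its values were seen.

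The epithelial and mesenchymal list had 9 of 20 measured genes falling and 3 rising (24 listed, median -1.27, 60% called). CLDN4, a tight junction claudin, was counted at 1371 and 2876 in Lv-piPSC-F and at 5.79 and 5.99 in Epi-piPSC-FL6i, a 288-fold fall (SE of the log2 difference 0.45, adjusted p = 0.00656). ESRP2, an epithelial splicing regulator that overlaps NFATC3, was at 2092 and 1546 against 32.8 and 81.9 and fell by 5.09 (SE 0.50, adjusted p = 0.00953). CLDN7 was at 2745 and 2995 against 130.3 and 316 (-3.81, adjusted p = 0.0127), and OCLN, or occludin, at 3898 and 3365 against 641 and 799 (-2.34, adjusted p = 0.00695). In all 4 genes the groups were clearly apart. Keratins moved with them. KRT18 was at 28622 and 31265 in Lv-piPSC-F and at 1038 and 1019 in Epi-piPSC-FL6i (log2 difference -4.86, SE 0.10, adjusted p = 0.00355, the smallest of the fit), and its partner KRT8 was at 61534 and 44803 against 4776 and 8472 (-3.04, SE 0.34, adjusted p = 0.0117). Both keratins stand on the trophectoderm list, where 5 of 13 measured genes fell and 1 rose (46.2% called). Its sum over 6 markers was 29522 and 31547 against 1409 and 1339, nearly all of it KRT18, and the defining factor CDX2 was at 9.90 and 8.70 against 0.965 and 0, below the filter. KRT7 fell by 2.20 (adjusted p = 0.0230, limma). GATA2 was at 207 and 9.40 against 201 and 143, and GATA3 at 160 and 10.1 against 96.5 and 83.9. TFAP2A was at 178 and 31.7 against 22.2 and 23.0. These 3 factors were split inside Lv-piPSC-F and did not pass, with log2 differences of 1.87, 1.11 and -1.70. TEAD4, a trophectoderm TEAD factor, was at 1896 and 2389 against 418 and 457 and fell by 2.28 (SE 0.17, adjusted p = 0.00726).

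Many endoderm and mesoderm genes did not pass the filter. Of 25 endoderm genes with an identifier 14 passed the filter, 4 rising and 4 falling (57.1% called). FOXA1 fell by 3.31 and HHEX by 4.66, while the chemokine receptor CXCR4 was at 133 and 71.7 against 707 and 678 and rose by 2.81 (SE 0.36, adjusted p = 0.0142). COL4A2, a basement membrane collagen, was at 731 and 721 against 4102 and 4874 and rose by 2.62 (SE 0.13, adjusted p = 0.00656). GATA6 was at 668 and 1299 against 433 and 624 and did not pass (adjusted p = 0.176, limma). FOXA2 and HNF4A were at 3 normalized counts or fewer in all 4 samples, so GATA6 made up nearly all of the sum of the endoderm markers. Of 12 measured mesoderm genes EOMES, counted at 38.5 and 201 against 2.90 and 6.99, fell (adjusted p = 0.0488) and KDR, a VEGF receptor, rose by 3.39 (SE 0.71, adjusted p = 0.0345).

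The fibroblast and feeder list (26 measured, 5 rose and 2 fell, median 1.31) carried the split inside Lv-piPSC-F. Without the first Lv-piPSC-F sample its median was -0.09, and without the second it was 2.26. The called share of the list, 26.9%, was near the 27.2% of all tested genes. FBN1, or fibrillin, was counted at 509 and 707 in Lv-piPSC-F and at 3295 and 3737 in Epi-piPSC-FL6i, and FBLN2, or fibulin, at 263 and 303 against 1829 and 2709. Both were steady within each group and rose by 2.55 (SE 0.20, adjusted p = 0.00778) and 2.97 (SE 0.24, adjusted p = 0.00794). TAGLN, an actin-binding protein of contractile cells, was at 6027 and 6408 against 352 and 386, a 16.8-fold fall (SE of the log2 difference 0.12, adjusted p = 0.00607), and S100A6 fell by 3.00 (adjusted p = 0.00896). COL6A3, a chain of the microfibrillar collagen VI, was at 1.10 and 43.5 against 964 and 1213 (log2 difference 6.81, SE 1.53, adjusted p = 0.0397).

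Of 26 measured matrix and adhesion genes 12 fell and 4 rose (29 listed, median -0.91), a share of 61.5% beside the 27.2% of all tested genes. ITGA5, the alpha chain of the fibronectin receptor, was counted at 2034 and 2372 in Lv-piPSC-F and at 169.9 and 145 in Epi-piPSC-FL6i, a fall of 3.80 (SE 0.17, adjusted p = 0.00656). Its ligand FN1, or fibronectin, was at 1610 and 4743 against 16084 and 15159 and rose by 2.50 (SE 0.54, adjusted p = 0.0365). LAMA5, a laminin chain made by pluripotent cells, was at 7741 and 4495 against 569.6 and 528 and fell by 3.42 (SE 0.29, adjusted p = 0.00819). NID2 and TNC fell by 2.88 and 2.75, and ITGB8 was at 7.70 and 11.8 against 346 and 427 and rose by 5.19 (SE 0.40, adjusted p = 0.00776).

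Chromatin genes showed a few large changes. UHRF1, which brings the maintenance methyltransferase to replicated DNA, was counted at 962 and 841 in Lv-piPSC-F and at 5875 and 6312 in Epi-piPSC-FL6i, a 6.76-fold rise (SE of the log2 difference 0.12, adjusted p = 0.00656). It overlaps ARRDC5. DNMT1 and DNMT3A rose by 0.50 and 0.86, against the fall of DNMT3B, so 4 of 15 DNA methylation genes rose and 1 fell. CBX2, a polycomb reader, was at 589.7 and 329.7 against 3654 and 3919 and rose by 3.10 (SE 0.31, adjusted p = 0.00969), and EZH2, the polycomb methyltransferase, was at 1055 and 863 against 2671 and 2634 and rose by 1.47 (SE 0.14, adjusted p = 0.00932). Of 22 polycomb and histone modifier genes 5 rose and 2 fell. The called share was 33.3% in the DNA methylation list and 31.8% in this one, beside the 27.2% of all tested genes.

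Of 14 measured imprinted genes 3 rose and 4 fell (50% called). PEG3, a paternally expressed zinc-finger gene, was counted at 0 and 0.696 in Lv-piPSC-F and at 573 and 481 in Epi-piPSC-FL6i. It had 2 reads in the Lv-piPSC-F pair, for a ratio of 997 (counting interval 276 to 8235, adjusted p = 0.00689, limma). CDKN1C, a maternally expressed growth inhibitor, was at 13.2 and 27.9 against 175 and 128 and rose by 2.89 (adjusted p = 0.0253). DLK1 was at 286 and 107 against 9.65 and 22.0 and fell by 3.49 (adjusted p = 0.0322), PLAGL1 fell by 2.06 (adjusted p = 0.00808), and PHLDA2 was at 19.8 and 48.7 against 1.93 and 0 (ratio 34.9, counting interval 9.66 to 288, adjusted p = 0.0358). In the germline list 8 of 24 genes with an identifier passed the filter. KIT, the stem cell factor receptor, was at 857 and 855 against 5553 and 6827 and rose by 2.85 (SE 0.14, adjusted p = 0.00656). The meiotic genes SYCP2, overlapping, and STAG3 rose by 3.46 and 3.18, and DND1, overlapping WDR55, fell by 3.06. Only 8 of 34 HOX genes with an identifier passed the filter. HOXD3 was at 30.8 and 10.8 against 514 and 456 and rose by 4.65 (SE 0.57, adjusted p = 0.0134), HOXD4 and HOXD8 rose by 2.58 and 1.51, and HOXA7 fell by 2.90 (adjusted p = 0.045).

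Metabolic and proliferation lists were called at or below the 27.2% of all tested genes. Of 23 glycolysis genes 4 rose and 1 fell. The lactate exporter SLC16A3 was counted at 103 and 147 in Lv-piPSC-F and at 3719 and 2121 in Epi-piPSC-FL6i, a 22.6-fold rise (SE of the log2 difference 0.35, adjusted p = 0.00778). ENO2 rose by 2.41 and the hexokinase HK2 by 1.61. Of 13 mitochondrially encoded genes 3 fell, ND1 and ND3 by 0.69 each, and ND6, the light-strand gene, by 2.72 from 23378 and 9917 to 1884 and 2836. The higher ND6 count was in the library whose opposite-strand counts stood apart. The 2 measured sex-linked genes did not pass. Cholesterol synthesis had 2 of 22 rising and 1 falling. Of 24 proliferation genes 3 rose and 3 fell, the latter being CCND1, CCND2 and CDK6, which act together in G1. In the interferon list 2 of 14 genes rose and 3 fell, a share of 35.7%. The antiviral ubiquitin-like ISG15, overlapping, was at 88.0 and 71.4 against 4.83 and 2.00 and fell by 4.26 (SE 0.59, adjusted p = 0.0166), and IRF7 fell by 4.11 (adjusted p = 0.0352).

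A set of genes was close to off in one line and well expressed in the other, at no more than 3 reads in both samples of one group and at least 50 normalized counts in both of the other. Of the 13988 tested genes, 40 were by this rule expressed in Epi-piPSC-FL6i only and 35 in Lv-piPSC-F only. ZNF286A, a zinc-finger gene on chromosome 12, was counted at 0 in both Lv-piPSC-F samples and at 690.3 and 769 in Epi-piPSC-FL6i, at least 221-fold higher (adjusted p = 0.00656, limma). ZNF8 on chromosome 6 was at 0 against 408 and 373, at least 118-fold higher (adjusted p = 0.00656). The 2 zinc-finger genes were thus without a read in the deepest library of the set.

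The other samples of the series give these genes a reference. Of the 40 genes off in Lv-piPSC-F, 14 were at 50 or more normalized counts in each of the other 10 samples, and 5 of these have a symbol, ZNF286A, ZNF8, TRIM4, ZNF304 and ZNF227. Of the 35 off in Epi-piPSC-FL6i, 0 were at 50 or more in all of the other 10. The share of all tested genes at 50 or more in these 10 samples was not counted, so 14 and 0 are given without it. TRIM4, a RING-finger gene, was at 0 and 1.04 in Lv-piPSC-F and at 351 and 470.5 in Epi-piPSC-FL6i (ratio 518, counting interval 177 to 2512), and ZNF304 was at 1.10 and 0.348 against 181 and 194 (ratio 354, counting interval 98.0 to 2922). The neuronal genes LRRTM1, TMEM132E, ISLR2 and DCC, all among the 10 that rose most, were at 0 to 1.39 in Lv-piPSC-F and at 424 to 797 in Epi-piPSC-FL6i. COL22A1 was at 0 against 364 and 388, at least 114-fold higher (adjusted p = 0.00661). IGFBPL1 was at 7.70 and 0.696 against 2902 and 850.1 and rose by 8.68 (SE 1.05, adjusted p = 0.0132). ZNF304, ZNF227 and TRIM4 lie outside the naming rule and were chosen after their values were seen.

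SPINT2, a membrane inhibitor of serine proteases, fell most of all genes with a symbol. It was counted at 2839 and 2419 in Lv-piPSC-F and at 0.965 and 3.00 in Epi-piPSC-FL6i (log2 difference -9.87, SE 0.47, adjusted p = 0.00656). TSTD1, a thiosulfate sulfurtransferase-like gene, was at 805 and 738 against 0 in both, at least 258-fold lower (adjusted p = 0.00656), and in the other 10 samples it lay between 28.8 and 261. Both overlap another gene by 120 and 123 exon bases. PRSS8, or prostasin, a membrane serine protease, was at 913 and 458 against 5.79 and 3.00 and fell by 6.96 (SE 0.55, adjusted p = 0.0078). CFTR, the chloride channel, was at 623 and 556 against 6.76 and 0.999 and fell by 7.23 (SE 0.76, adjusted p = 0.0107). ANKRD1, a target of YAP that overlaps RPP30, was at 175 and 401 against 0 and 2.00 (ratio 293, counting interval 81.2 to 2422, adjusted p = 0.0118).

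The windows of 250 bases before the start of 5 of these genes are printed because these genes carry some of the largest differences. They are read from RefSeq on Sscrofa11.1, 5′ to 3′, with every CpG, the site of DNA methylation, in capitals. Methylation was not measured. PEG3 is at chr6:61307789-61308038 on the minus strand with 15 CpG, ZNF8 at chr6:62894367-62894616 on the plus strand with 18, ZNF286A at chr12:58964163-58964412 on the plus strand with 28, SPINT2 at chr6:47181522-47181771 on the plus strand with 17, and TSTD1 at chr4:89401070-89401319 on the plus strand with 11.
PEG3: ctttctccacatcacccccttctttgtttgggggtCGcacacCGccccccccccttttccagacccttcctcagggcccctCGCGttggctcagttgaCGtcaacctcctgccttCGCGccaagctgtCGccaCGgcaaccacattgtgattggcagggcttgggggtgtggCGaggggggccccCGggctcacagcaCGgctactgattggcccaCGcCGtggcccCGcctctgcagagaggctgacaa
ZNF8: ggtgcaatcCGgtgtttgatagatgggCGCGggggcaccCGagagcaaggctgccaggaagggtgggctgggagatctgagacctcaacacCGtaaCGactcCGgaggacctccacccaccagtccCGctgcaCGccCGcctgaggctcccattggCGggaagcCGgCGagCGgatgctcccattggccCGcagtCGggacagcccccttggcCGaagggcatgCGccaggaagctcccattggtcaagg
ZNF286A: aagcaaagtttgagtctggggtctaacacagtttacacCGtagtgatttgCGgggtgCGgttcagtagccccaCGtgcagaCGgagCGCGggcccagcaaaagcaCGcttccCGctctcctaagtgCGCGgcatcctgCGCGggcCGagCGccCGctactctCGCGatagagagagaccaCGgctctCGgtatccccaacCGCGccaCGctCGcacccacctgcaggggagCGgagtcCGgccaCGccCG
SPINT2: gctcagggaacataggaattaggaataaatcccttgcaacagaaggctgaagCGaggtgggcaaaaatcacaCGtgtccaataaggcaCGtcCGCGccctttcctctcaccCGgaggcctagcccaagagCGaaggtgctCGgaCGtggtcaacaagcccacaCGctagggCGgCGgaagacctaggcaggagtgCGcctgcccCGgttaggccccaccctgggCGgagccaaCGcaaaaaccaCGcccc
TSTD1: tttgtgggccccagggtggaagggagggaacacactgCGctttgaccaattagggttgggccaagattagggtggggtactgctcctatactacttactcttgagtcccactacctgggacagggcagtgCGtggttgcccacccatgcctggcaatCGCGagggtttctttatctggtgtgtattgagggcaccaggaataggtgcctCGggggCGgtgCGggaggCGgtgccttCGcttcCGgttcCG
The first 3 were off in Lv-piPSC-F and the last 2 in Epi-piPSC-FL6i. The median CpG count was 18 over the 19 windows of genes expressed in Epi-piPSC-FL6i only, 11.5 over the 28 of genes expressed in Lv-piPSC-F only, and 17.0 over 10814 tested genes. The single windows ranged from 0 to 47 and from 1 to 41, so the ranges overlapped almost fully.

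**Figure D4:**
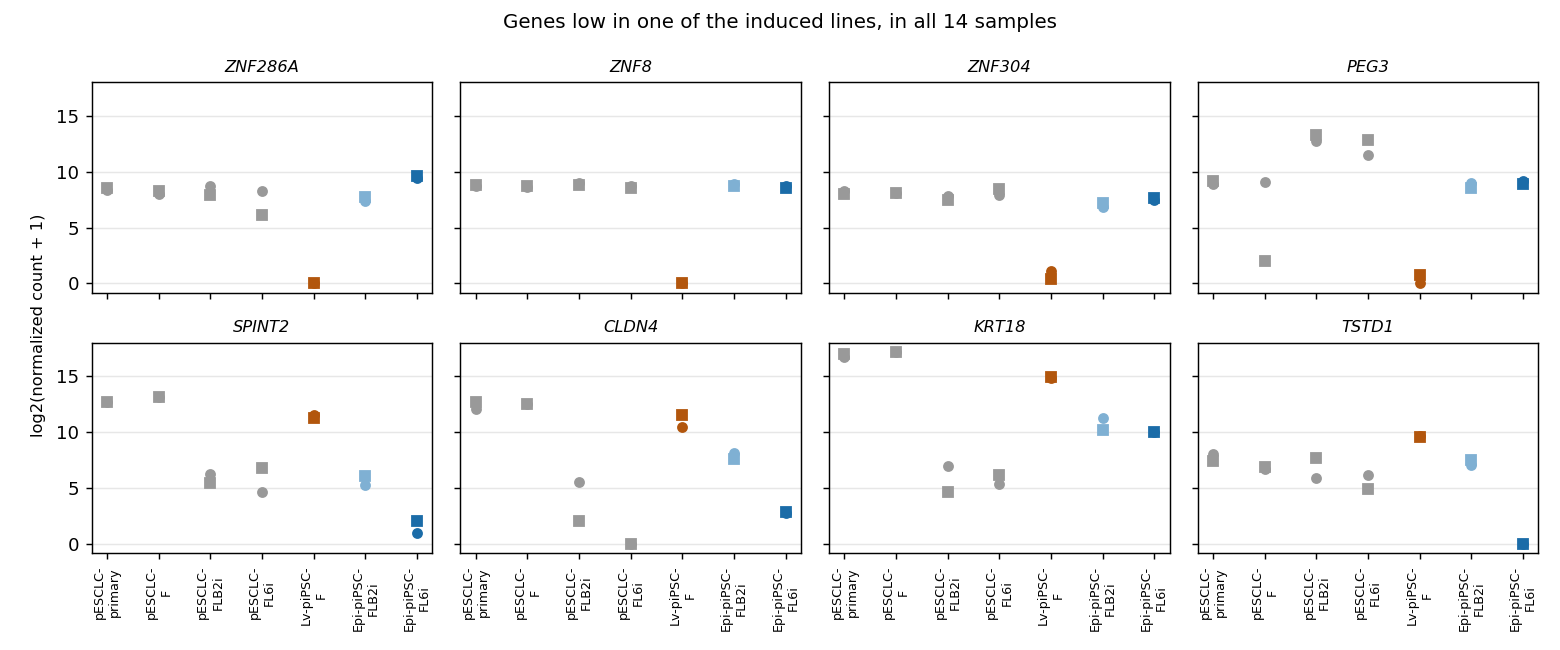
Each panel shows 1 gene as log2(normalized count + 1) (y axis) in the 7 groups (x axis), with a circle for the first and a square for the second sample. ZNF286A, ZNF8 and ZNF304 are near 0 in Lv-piPSC-F alone, whereas SPINT2, CLDN4 and KRT18 are low in the pESCLC-FL6i samples too.

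The pESCLC grown in FL6i and in F share no sample with the iPSC groups. Their F was not the F of the Lv-piPSC, since by the study's methods the blastocyst outgrowths were cultured with FGF2 in a serum-containing medium and the Lv-piPSC with FGF2 in a medium with serum replacement. The pESCLC contrast is thus a second comparison of FL6i with an FGF2 medium, in other cells and without a change of reprogramming vector. There, 1791 of 14748 tested genes (12.1%) rose in pESCLC-FL6i relative to pESCLC-F and 1406 (9.53%) fell. The pESCLC-FL6i samples differed from each other in depth, at 15179200 and 6193659 reads, and in the sum of fibroblast markers, at 3235 and 296578. They were at passages 3 and 9, and both pESCLC-F samples at passage 2, so passage and medium changed together and cannot be told apart. Of the 1817 genes that rose in the iPSC contrast and were tested in both, 555 (30.5%) also rose in the pESCLC contrast and 83 (4.57%) fell there. Of the 1804 that fell, 409 (22.7%) also fell and 80 (4.43%) rose. Among the 9802 genes not called between the iPSC lines, 8.08% rose and 7.17% fell in the pESCLC. By the interaction term of the 8 samples, the differences themselves differed in 2542 of 15525 genes (16.4%), the iPSC difference being the higher in 7.71% and the lower in 8.66%.

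Lists are given with their values in each contrast. The MEK/ERK genes had 4 of 20 falling and 0 rising in the pESCLC (median -1.54), where 21.7% of all tested genes were called, and the interaction was called for 4 of 23, near its 16.4% over all genes. DUSP6, for example, fell by 3.40 in the pESCLC (adjusted p = 0.0232, limma) beside 2.55 in the iPSC. In the epithelial list 16 of 20 genes fell in the pESCLC (median -7.48), and the interaction was called for 14 of 21. KRT18 fell by 11.40 in the pESCLC and by 4.86 in the iPSC, and the interaction of 6.54 passed (adjusted p = 0.000883). In the HOX list 23 of 25 tested genes rose in the pESCLC (median 7.06), where 8 passed the filter in the iPSC. Of the neural genes 12 of 18 rose and 2 fell in the pESCLC, beside 6 of 13 and 3 of 13 in the iPSC, and MAP2 rose by 6.70 and by 4.08. LIN28A fell by 10.10 in the pESCLC (adjusted p = 0.0207, limma) and was near level in the iPSC (interaction 10.55, adjusted p = 0.0124). Human LIN28 was on the episomal plasmids, and the part of a transgene in this was not tested. OTX2 fell by 11.55 in the pESCLC (adjusted p = 0.00626, limma), with an interaction of 11.41 (adjusted p = 0.00128). ZNF286A and ZNF8 did not pass in the pESCLC (log2 differences of -0.91 and -0.02), and the interaction was called for both (adjusted p = 0.00253 and 0.00105).

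**Figure D5:**
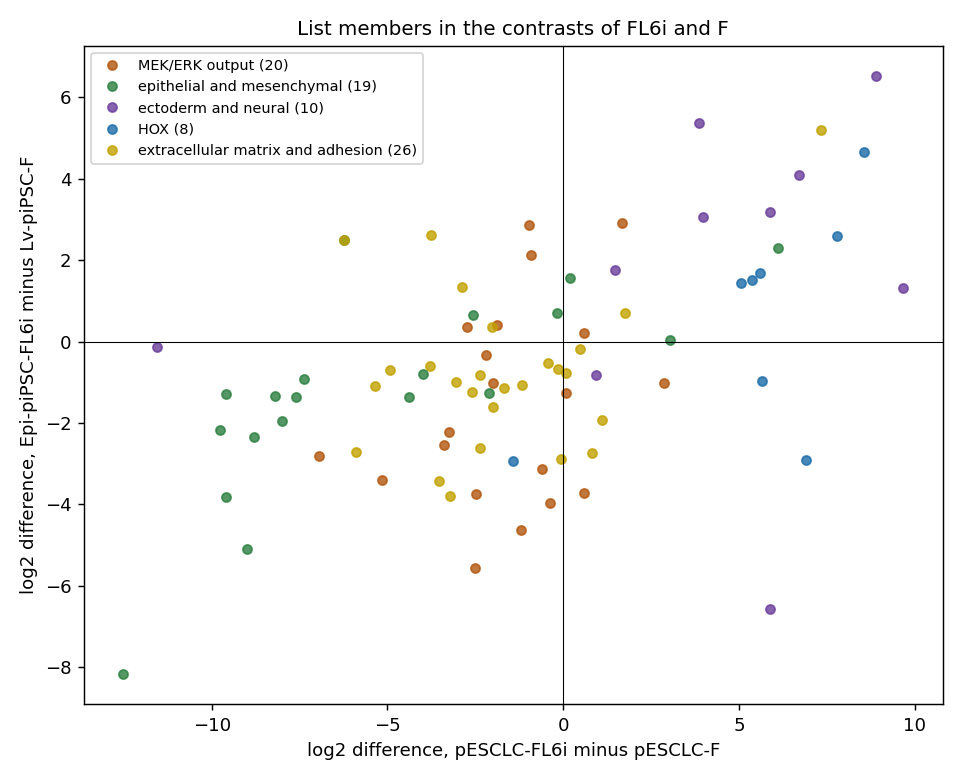
Each point is a gene of 1 of 5 lists that was tested in both contrasts, with its log2 difference of pESCLC-FL6i minus pESCLC-F on the x axis and of Epi-piPSC-FL6i minus Lv-piPSC-F on the y axis. CLDN4 lies at the lower left (-12.52 and -8.17), PAX6 at the upper right (8.90 and 6.52), and FOXD3 at the lower right (5.89 and -6.58).

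The remaining groups can be placed between the lines gene by gene. The Epi-piPSC kept in FLB2i, a medium with BMP4 and with inhibitors of GSK3 and the TGFB receptors only, had a mean nearer to Epi-piPSC-FL6i than to Lv-piPSC-F on the log2 scale for 63.2% of all tested genes, for 65.9% of the DEGs that rose and for 62.8% of those that fell. For pESCLC-FL6i these shares were 67.1%, 79.5% and 68.5%. For pESCLC-F they were 56.5%, 33.3% and 43.2%, and for the primary outgrowths 57.5%, 41.4% and 38.1%. For pESCLC-FLB2i they were 65.7%, 74.4% and 67%. For the DEGs that rose, pESCLC-F and the primary outgrowths thus lay more often on the side of Lv-piPSC-F. The groups in FL6i or FLB2i lay more often on the side of Epi-piPSC-FL6i, as they also did over all tested genes. For Epi-piPSC-FLB2i the share of 65.9% was near its 63.2% of all tested genes. These are counts of genes that were not tested as such.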

How the data were processed

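RNA of 14 porcine samples was sequenced as stranded mRNA libraries (TruSeq). The authors aligned the reads to Sscrofa11.1 with TopHat2 2.1.0, counted them per Ensembl gene with HTSeq and normalized them with DESeq2. The deposited values are a signal, namely normalized counts, read counts divided by 1 size factor per sample. Every deposited signal value was a whole number of reads times a constant of its sample, to within 1.8e-09 reads, so reads, depths and floors were recovered from 100% of the values. In 2 samples that constant is near 1. No column belonged to another series (0), and the rows hold genes only. Symbols came from a RefSeq table, which named 14151 of 19588 identifiers.

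The members and lists were chosen with earlier results of these data known. Values entered limma 3.58.1 (R 4.3.3) on the log2(normalized count + 1) scale, its prior variance following a trend with the mean, two-sided, with Benjamini-Hochberg adjustment over all tested genes. Genes with at least 10 normalized counts in 2 samples of the contrast were tested. A gene rose or fell at an adjusted p of at most 0.05, and a DEG also had a log2 difference of at least 3 in size. The same fit was made for pESCLC-FL6i against pESCLC-F, and an interaction term over the 8 samples compared the contrasts. Genes of 35 lists were named by rule, up to 5 called by size and up to 2 not called by mean, with the delivered genes and the 10 DEGs that rose and the 10 that fell most. List members named beyond this rule, and the genes of the strand example, were chosen after their values were seen. A few genes and the results of 1 list are not reported here. Intervals of read ratios are exact 95% Poisson intervals for the counting error of the low group only, with the mean of the high group held fixed. The floor was 3 reads per library. Where neither sample of a group exceeded the floor, fitted values depend on the added count of 1. Alternatives changed the added count, filter, scaling, samples and test (DESeq2 1.42.0 and edgeR 4.0.16 on the recovered reads). The test scripts were tested on simulated counts. Exon overlaps and promoters used RefSeq positions on Sscrofa11.1.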

Additional observations from a re-analysis of the deposited data

Results flagged for a closer look

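The difference of Epi-piPSC-FL6i from Lv-piPSC-F, in which vector, line and medium change together, was set against that of pESCLC-FL6i from pESCLC-F. The interaction term passed in 2542 of 15525 genes (limma, adjusted p at most 0.05). Among named genes called in both contrasts with opposite signs, the matrix genes FBLN2, FN1 and COL4A2 and the receptors KDR and LGR5 rose in Epi-piPSC-FL6i and fell in pESCLC-FL6i. The iPSC difference exceeded the pESCLC difference on the log2 scale by 8.99 for FBLN2, 8.73 for FN1, 6.39 for COL4A2, 5.98 for KDR and 5.73 for LGR5. The inhibitory SMAD6 (7.57), the meiotic gene SYCP2 (7.78) and the lactate exporter SLC16A3 (7.25) showed the same order. The reverse order, lower in Epi-piPSC-FL6i and higher in pESCLC-FL6i, was found for FOXD3 (-12.5), HOXA7 (-9.82), ZIC5 (-8.81) and the BMP co-receptor RGMB (-4.40). FOXD3 was called with 1 read in the Epi-piPSC-FL6i pair. SYCP2 and RGMB overlap a gene on the other strand. Fibroblast markers and passage differed between the pESCLC-FL6i samples, and their part in these differences was not tested.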

How the results depend on the processing

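The count of called genes (3807) ranged from 0 to 8241 and that of DEGs (806) from 0 to 1153 when 1 of the 4 samples was left out, with 0 for either Epi-piPSC-FL6i sample and 726 and 1153 DEGs without the first and second Lv-piPSC-F sample. With 1 sample left in a group, that sample is assumed to vary like the other pair. Of the DEGs, 589 were still tested without a Lv-piPSC-F sample, and 532 and 525 of these stayed DEGs. With the size limit lowered to a 3-fold change there were 1796 DEGs. The other settings gave 2678 to 5160 called genes and 542 to 978 DEGs, DESeq2 giving 5160 and 978 and edgeR 3580 and 794. No DEG changed sign in any setting. Keeping only genes with a single RefSeq position and no exon overlap on the other strand, a choice made after seeing the data, left 2944 of 8518 genes called and 542 DEGs, and it dropped genes without a position as well as overlapping ones. Replicate numbers do not pair the samples, since no label says that they mark a shared batch and only 2 pairs exist (correlation of deviations 0.0867). The fit with the number as a replicate block called 2678 genes and 721 DEGs, 2986 genes in the pESCLC contrast and 2121 by the interaction. The interaction count (2542) was 3837 by DESeq2 and 620 to 5308 with 1 sample left out, and the pESCLC count (3197) was 153 to 7520. Of 167 named genes 153 were called. In at least 4 of these 167 genes the sign depended on which Lv-piPSC-F sample was left out. None of the 4 was called with all samples, and all were split inside Lv-piPSC-F. Without the first and the second, the log2 difference was -2.73 and 0.69 for MYC, -6.13 and 2.41 for INHBA, 1.82 and -0.57 for CDKN1A, and -0.81 and 7.09 for COL1A1. GATA2 and GATA3, also split inside Lv-piPSC-F, were not among the 167 genes and were not checked for this. The replicate block ended the calls of 26 named genes, the fit over all 14 samples those of 46 and DESeq2 those of 0. Depth limits genes at 3 reads or fewer, whose ratios have wide intervals.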

Other observations

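Some further genes were picked after their values were seen, with no test, most of them high in 1 group of the series. HBB, a globin gene of a family of near-identical copies, was counted at 278 and 323 in Epi-piPSC-FL6i, at 11.4 and 17.5 in Epi-piPSC-FLB2i, at 0 and 0.348 in Lv-piPSC-F and at 0 in all 8 pESCLC samples. MLPH, a linker of pigment granules to myosin, was at 245 and 199.8 in Epi-piPSC-FL6i and at no more than 2.09 in the other 12 samples. TRIML2 was at 70.4 and 97.5 in Lv-piPSC-F and at no more than 3.93 elsewhere. SIM2, a bHLH-PAS factor, was at 115.5 and 91.9 in Lv-piPSC-F, at 26.2 in the second pESCLC-FL6i sample and at 1.09 or less in the others. GAD1, the enzyme that makes the transmitter GABA, was at 706 and 583 in Epi-piPSC-FLB2i and at 0.965 and 0.999 in Epi-piPSC-FL6i. Lines of the same vector thus differed there, while Lv-piPSC-F had 69.3 and 128.8. GAD1 was not limited to 1 group, being at 192 and 139 in pESCLC-FLB2i and at 250 and 1540 in pESCLC-FL6i.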
